A study of Mus musculus with 12 samples.

Results

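Genes of fatty-acid oxidation and of the carnitine shuttle were described in oocytes of mice fed HFD (high-fat diet) or CD (control diet). The 30 genes are a list of known members of the pathway, matched by symbol to the 24062 genes of the count table, and all 30 were present in it. The HFD group held 6 libraries and the CD group 6 libraries, each made from a pool of 4 oocytes. The labels used here state neither strain nor age, nor which of the 6 females per diet gave which pool, so p-values measure the spread between pools, which may in part be technical. Females ate their feed for 9 weeks, were then mated with vasectomized males while all of them received CD, and oocytes were collected on day 0.5 after mating. The labels give 1 product code for both feeds and call the HFD a modified version of it, so the composition of the CD feed is uncertain, and the groups follow the diet names.

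Fatty-acid oxidation shortens fatty acids inside mitochondria to acetyl-CoA. Long chains enter as carnitine esters through the carnitine shuttle, after which acyl-CoA dehydrogenases, a hydratase, a second dehydrogenase and a thiolase act in a repeating cycle, and the electron transfer flavoprotein carries electrons from the acyl-CoA dehydrogenases to the respiratory chain. In mouse oocytes this pathway is known to be needed for normal meiotic maturation and early development, and blocking the shuttle impairs both.

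Several libraries stood apart. Gene counts summed to between 8409491 and 13793598 in HFD and between 8556396 and 10477316 in CD. HFD replicate 3 had the most genes detected (14755, against 12229 to 13052 in the other 11 libraries), and HFD replicates 1, 2, 4 and 6 held even counts only. The dependence of expression on transcript length differed between the diets: the slope of log2 CPM (counts relative to the TMM-scaled library size) on log2 length ran from -0.52 to -0.0887 in HFD and from -0.161 to 0.402 in CD (two-sided exact permutation test, p = 0.00649). All 12 oocyte markers were detected, and their summed level ran from 11560 to 24680 CPM in HFD and from 9117 to 17940 CPM in CD. The 20 markers of cumulus and granulosa cells summed to 108.5 to 1818 CPM in HFD and 133.2 to 1356 CPM in CD. Serpine2 led that sum, and Amh, Ptx3, Areg and Amhr2 were at 0 in all libraries. Markers of stroma and endothelium summed to 5.16 to 35.0 CPM in HFD and 8.47 to 160.9 CPM in CD, and those of oviduct to 5.52 to 29.2 CPM in HFD and 6.29 to 13.65 CPM in CD. Blood and immune markers, with 4 of 7 at 0, reached at most 0.662 CPM in HFD and 3.525 CPM in CD. Of 5 markers of brown fat, liver and muscle, Ucp1, Alb and Ckm were at 0, and the sum, led by Apoa1, reached at most 2.27 CPM in HFD and 0.181 CPM in CD. The part of other cell types in the results was not tested. Because a pool is a bulk sample, fewer contributing oocytes and less RNA per oocyte cannot be told apart.

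Most of the transcripts of the pathway came from 3 genes. Measured as CPM per kilobase of exons, Etfa, the alpha subunit of the electron transfer flavoprotein, averaged 261 ± 98.8 over the 12 libraries, Echs1, the short-chain enoyl-CoA hydratase, 79.1 ± 25.4, and Acadm, the medium-chain acyl-CoA dehydrogenase, 59.7 ± 26.8 (SD over 12 libraries). Each value here is a level and not a difference between diets. Together they made up 59.5% to 92.0% of the summed level per kilobase of all 30 genes in HFD libraries (median 88.7%) and 75.0% to 88.2% in CD libraries (median 82.9%). Etfa lay above Echs1 in 12 of 12 libraries, and Echs1 above Acadm in 9 of 12. The next gene, Hadhb at 9.44 ± 3.78, was below Acadm in 12 of 12 libraries. From Hadhb down through Cpt2, Acadl, Etfb, Hsd17b4, Hadh, Acadsb and Hadha, at 8.95 to 4.24, neighbours in the order mostly overlapped, as Hadhb lay above Cpt2 in 7 of 12 libraries. The place of Etfb, at 7.15 ± 15.9, rested on 1 library, and it lay above the next gene, Hsd17b4, in 2 of 12.

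At the other end, 12 of the 30 genes did not pass the filter on low counts and were not tested. Among them were all forms of carnitine palmitoyltransferase 1, the enzyme that controls entry into the shuttle. Cpt1a, the liver form, had 0 to 6 counts per HFD library and 0 to 9 per CD library. Cpt1b, the muscle form, had none in any library, though 2744 of its 2895 exonic bases overlap Gm44502 on the same strand. Gm44502 is not among the genes of the count table, and whether the overlap changed the Cpt1b count was not tested. That count is uncertain and the 0 does not show absence. Cpt1c, the brain form, had 0 to 22 counts in HFD and 0 to 11 in CD. Ehhadh, a peroxisomal bifunctional enzyme, was the other gene with no count in 12 libraries. A count of 0 allows up to 3 counts, or 0.217 to 0.357 CPM of total gene counts per library, which covers counting error only. Whether the even counts of 4 HFD libraries come from read pairs counted as 2 reads was not tested. If so, their floor would be 6 counts, or 0.435 to 0.606 CPM, and their raw counts would not be on the scale of the other libraries. Acadvl, the very-long-chain dehydrogenase, had 0 to 18 counts in HFD and 0 to 7 in CD, though 1151 of its exonic bases overlap Dvl2 on the other strand, and reads there cannot be told apart. Etfdh, which passes electrons from the flavoprotein to ubiquinone, had 0 to 9 counts in HFD and 0 to 4 in CD. Crat, the carnitine acetyltransferase, had 0 to 22 counts in HFD and 3 to 20 in CD. Acads, the short-chain dehydrogenase, had 0 to 8 counts in HFD and 0 to 3 in CD. Eci1, an isomerase for unsaturated chains, reached 74 counts in HFD and 19 in CD, though it was at 0 in some libraries of either diet. Decr1, a reductase for unsaturated chains, had counts in 2 of 6 HFD libraries, at most 14, and in no CD library. Acaa1a, a peroxisomal thiolase, had 0 to 4 counts in HFD and 0 to 6 in CD, and Acot2, a mitochondrial thioesterase, 0 to 2 in HFD and 0 to 5 in CD. Acaa1a matches Acaa1b at 96.6% over 1428 bases and Acot2 matches Acot1 at 95.1% over 1274 bases, so their counts are uncertain.

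**Figure D1:**
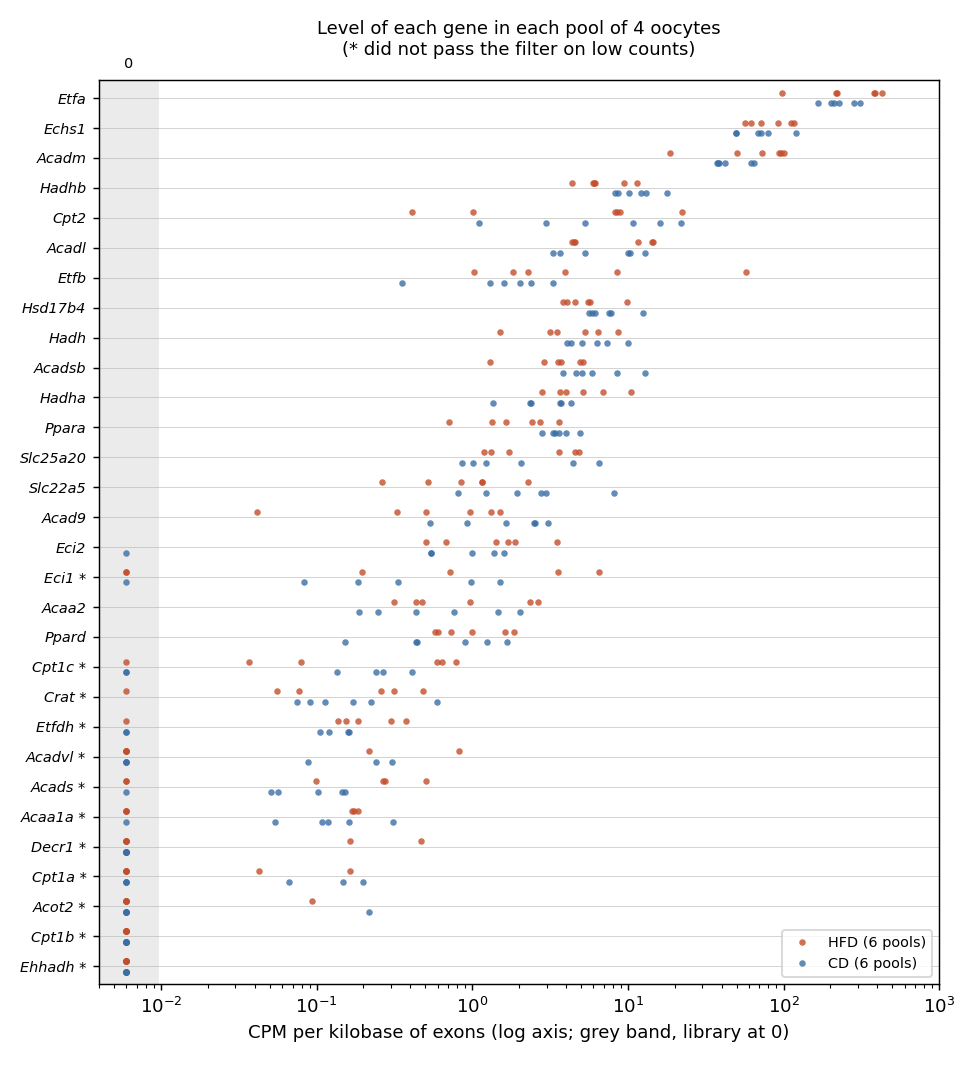
Level of the 30 genes in CPM per kilobase of exons on a log axis, 1 point per library, with HFD pools drawn above CD pools for each gene and libraries at 0 in the grey band. Etfa, Echs1 and Acadm have the highest means over the 12 libraries, and the Cpt1 genes lie at or near 0 in both diets. Single points overlap: Etfb reaches 57.4 and Cpt2 22.2, above the lowest Acadm point at 18.7.

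The start regions of 5 genes are shown because they span that range of levels and bear on the partner subunits whose values are compared further on. Sequences are RefSeq's for GRCm38.p6, the build mm10 uses, from 250 bases before to 50 after the annotated start, 5′ to 3′ on the gene's strand, with CpG dinucleotides in capitals. Etfa (chr9:55512194-55512493, minus strand) and Etfb (chr7:43443822-43444121, plus strand) encode the subunits of 1 protein. Acadm (chr3:153944594-153944893, minus strand) was the highest dehydrogenase, and Cpt1a (chr19:3323051-3323350, plus strand) was near 0. Hadhb (chr5:30155003-30155302, plus strand) is read away from its partner Hadha. GENCODE M21 leaves 85 bases between the starts of the pair, and its start of Hadha, at position 30155162, lies in this window. RefSeq's start of Hadha differs and lies outside it. The RefSeq window of Hadha is chr5:30154931-30155230, minus strand.
Etfa: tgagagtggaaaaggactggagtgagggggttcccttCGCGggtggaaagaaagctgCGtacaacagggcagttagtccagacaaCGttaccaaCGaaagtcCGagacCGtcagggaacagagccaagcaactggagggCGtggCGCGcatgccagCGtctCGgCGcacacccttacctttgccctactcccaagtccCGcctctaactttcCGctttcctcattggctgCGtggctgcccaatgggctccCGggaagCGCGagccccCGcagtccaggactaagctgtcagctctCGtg
Etfb: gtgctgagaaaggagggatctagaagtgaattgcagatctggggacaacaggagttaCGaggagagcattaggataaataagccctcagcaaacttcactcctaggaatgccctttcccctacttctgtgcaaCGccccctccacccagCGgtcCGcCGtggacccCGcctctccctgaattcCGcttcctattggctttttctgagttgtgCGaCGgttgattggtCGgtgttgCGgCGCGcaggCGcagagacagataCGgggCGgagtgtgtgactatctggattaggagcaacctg
Acadm: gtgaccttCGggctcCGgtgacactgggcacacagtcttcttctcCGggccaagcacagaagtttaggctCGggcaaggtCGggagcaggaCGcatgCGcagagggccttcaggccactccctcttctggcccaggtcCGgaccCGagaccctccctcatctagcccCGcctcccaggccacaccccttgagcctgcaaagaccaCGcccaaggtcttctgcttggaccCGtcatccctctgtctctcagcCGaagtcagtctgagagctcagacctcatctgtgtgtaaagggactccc
Cpt1a: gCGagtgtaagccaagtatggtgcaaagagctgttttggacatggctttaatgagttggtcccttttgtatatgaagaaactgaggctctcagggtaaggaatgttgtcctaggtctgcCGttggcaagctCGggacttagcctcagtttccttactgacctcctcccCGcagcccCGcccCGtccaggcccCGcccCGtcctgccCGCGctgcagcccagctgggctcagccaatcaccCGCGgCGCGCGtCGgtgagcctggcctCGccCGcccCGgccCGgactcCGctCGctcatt
Hadhb: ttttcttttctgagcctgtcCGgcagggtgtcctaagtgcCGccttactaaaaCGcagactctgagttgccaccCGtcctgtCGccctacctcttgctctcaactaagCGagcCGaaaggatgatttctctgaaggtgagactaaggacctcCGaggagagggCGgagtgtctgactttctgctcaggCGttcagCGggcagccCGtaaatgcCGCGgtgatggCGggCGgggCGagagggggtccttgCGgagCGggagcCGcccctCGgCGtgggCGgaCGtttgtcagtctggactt

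CpG dinucleotides numbered 21 in the Etfa window, 16 for Etfb, 13 for Acadm, 22 for Cpt1a and 24 for Hadhb. A window was at hand for 24 of the 30 genes, with 8 to 34 CpG. The median was 20 over the 15 tested genes with a window and 14 over the 9 that were not tested, against 21 over 7536 tested genes of the whole table and 7 over all 32851 windows. Among these 5, Cpt1a had 1 more than Etfa, so CpG number did not follow level. The motif of the PPAR receptors, AGGTCANAGGTCA, was searched on both strands and was found in 0 of the 24 windows and in 0.0396% of all windows. The single element AGGTCA, which lies within the longer motif, was found in 5 of 24 windows (20.8%), Acadm and Cpt1a among them, and in 16.3% of all windows. A match is a description of letters in a window and does not show binding.

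The diets were compared with edgeR's quasi-likelihood test over the 9935 genes that passed the filter, 18 of the 30 among them. None of the 18 passed an adjusted p of 0.05, and 0% of all tested genes did, with 0.0913 as the smallest adjusted p of any gene. Adjusted p ran from 0.118 to 0.935 over the 18. At an unadjusted p under 0.05, Etfb and Hadha were on the higher side in HFD and Slc22a5 and Acadsb on the lower side, 4 of 18, against 22.3% of all tested genes (13.4% higher and 8.89% lower). DESeq2 called 1 gene, Etfb, against 7.42% of the genes it adjusted. Without HFD replicate 3 it called 0, against 5.21%. Over the 2 HFD and 6 CD libraries that held odd counts, edgeR called 1 gene, again Etfb, against 4.03%. Those HFD libraries are replicates 3 and 5, at 51.2 and 2.05 CPM of Etfb, so that call too includes replicate 3. On all libraries limma-voom with quality weights called 0, against 0.352%. Of the 18, 10 had a log2 fold change (HFD minus CD) above 0 and 8 below, with a median of 0.16 beside 0.04 over all tested genes, where 51.8% were above 0. The median was -0.17 with the trend with transcript length removed, the other side of 0. The values of the diets overlapped for each of the 18, while they did not overlap for 2.45% of all tested genes.

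**Figure D2:**
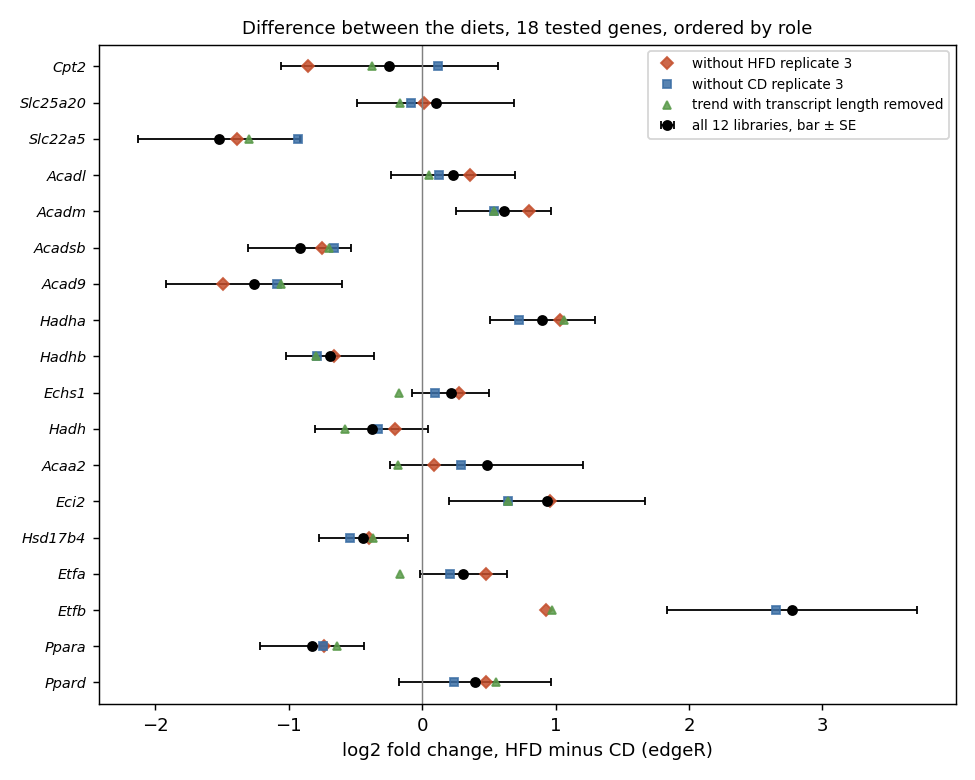
Log2 fold change, HFD minus CD, of the 18 tested genes ordered by role, as edgeR estimates with SE bars from all 12 libraries, and the same value without HFD replicate 3, without CD replicate 3, and with the trend with transcript length removed. Etfb stands at 2.77 with all libraries and at 0.93 without HFD replicate 3, and no gene passed an adjusted p of 0.05 with all 12 libraries.

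In the carnitine shuttle, 3 of 7 genes were tested. Slc22a5, the plasma membrane transporter that takes up carnitine, had 0.811, 3.05 and 6.96 CPM as lowest, median and highest of the HFD libraries and 2.49, 7.15 and 24.9 CPM in CD. All 6 HFD libraries lay below the CD mean, 2 of them below every CD library, and CD replicate 3 was far above the rest of its diet. The log2 fold change was -1.52 ± 0.61 (SE; edgeR, adjusted p = 0.166), and it was -0.93 without CD replicate 3. Part of its transcript, 831 bases at 98.3% identity, is shared with Slc22a21. Reads there may be tallied as aligned to several places and counted for neither gene. The part of such reads in the Slc22a5 values was not tested.

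Cpt2, which rebuilds acyl-CoA from acylcarnitine at the inner membrane, had 0.973, 19.9 and 52.6 CPM in HFD and 2.62, 19.1 and 52.3 CPM in CD. Its log2 fold change was -0.25 ± 0.81 (edgeR, adjusted p = 0.884), with its sign turned to 0.12 without CD replicate 3 and 0.58 in the libraries with odd counts. Over the 12 libraries the highest value was 54.1 times the lowest, and the diets overlapped. Slc25a20, the translocase that exchanges acylcarnitine for carnitine, had 2.13, 4.78 and 8.65 CPM in HFD and 1.52, 2.92 and 11.6 CPM in CD. Its log2 fold change was 0.10 ± 0.59 (edgeR, adjusted p = 0.935), with the sign turned to -0.16 when the length trend was removed. Slc25a20 is given by library because of a pattern seen after its values were examined.

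These neighbours in the shuttle were not high in the same pools. The 4 libraries with the lowest Cpt2 were HFD replicates 1 and 2 and CD replicates 2 and 4, at 0.973, 2.39, 7.11 and 2.62 CPM. Those same 4 libraries had the highest Slc25a20, at 8.11, 8.65, 11.6 and 7.97 CPM, while the other 8 held 1.52 to 6.48 CPM. The ratio of Cpt2 to Slc25a20 per kilobase ran from 0.0902 to 7.10 in HFD and from 0.247 to 18.1 in CD. Of the same 4 libraries, 3 were among the 4 highest for Echs1, for Hadha and for Hsd17b4, and 3 among the 4 lowest for Acadl, Acad9 and Slc22a5. The share of all tested genes that did so was not counted, so nothing is read from these counts. The pools were picked out after their values were seen, so no test was made. Their gene counts ran from 8556396 to 13793598. Their length slopes were -0.346 and -0.16 in HFD and -0.0858 and -0.161 in CD. The CD pair had the lowest slopes of its diet and the HFD pair did not, and the part of the slope in the pattern was not tested. Over all genes, CD replicates 2 and 4 had the lowest value of any pair within a diet, at 25.1 chi-square units per degree of freedom. HFD replicates 1 and 2 differed by 97.3, against 155 to 319 for their pairs with other HFD libraries. This measure uses raw counts, so it rises with depth and would rise if read pairs were counted as 2 reads. Its values are therefore not on the same scale for all pairs. In deviation from the diet mean, HFD replicates 1, 2 and 3 each correlated best with CD replicate 2. Whether the pattern is particular to the shuttle was not tested.

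**Figure D3:**
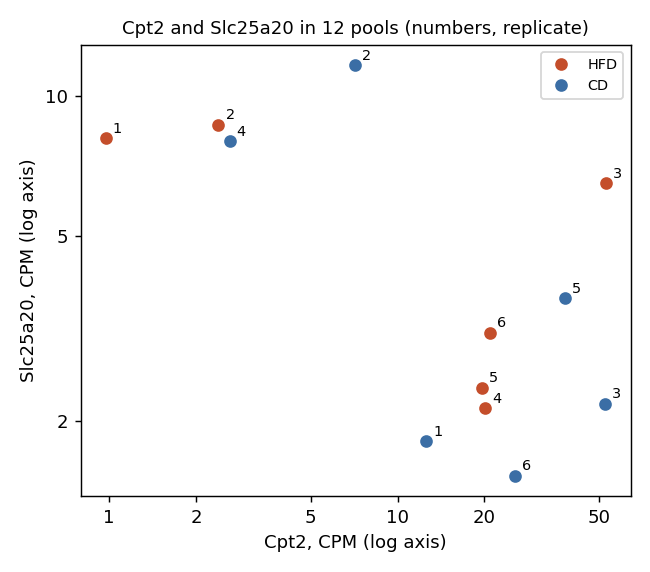
CPM of Cpt2 and of Slc25a20 in the 12 pools on log axes, with the replicate number beside each point and the diets in separate colours. HFD replicates 1 and 2 and CD replicates 2 and 4 hold the 4 lowest Cpt2 and the 4 highest Slc25a20 values.

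Of the acyl-CoA dehydrogenases, which open the cycle for chains of different length, 4 of 6 were tested. Acadm had 38.3, 171 and 206 CPM in HFD and 77.1, 82.8 and 133 CPM in CD. In HFD, 4 libraries lay above every CD library, and replicate 3 lay below all of them. The log2 fold change was 0.61 ± 0.36 (edgeR, adjusted p = 0.322), and its sign turned (-0.07) in the libraries with odd counts. Acadsb, which acts on short branched chains from isoleucine, had 7.87, 22.1 and 31.3 CPM in HFD and 23.3, 33.15 and 77.8 CPM in CD. All 6 HFD libraries were below the CD mean and 4 were below every CD library, with a log2 fold change of -0.92 ± 0.39 (by edgeR, adjusted p = 0.188). It was -0.66 without CD replicate 3, the highest library, and -0.70 with the length trend removed. Acad9, which is also an assembly factor of respiratory complex I, had 0.162, 2.885 and 5.91 CPM in HFD and 2.11, 8.13 and 12 CPM in CD, again with 6 of 6 HFD libraries below the CD mean. Its log2 fold change was -1.26 ± 0.66 (edgeR, adjusted p = 0.269), or -1.09 without CD replicate 3 and -1.06 with the length trend removed. Of its exonic bases, 559 overlap Gm43079 on the same strand. Gm43079 is not among the genes of the count table. Whether the overlap changed the Acad9 count was not tested, so that count is uncertain. Acadl, the long-chain dehydrogenase, ran from 8.37 to 27.6 CPM in HFD and from 6.35 to 24.7 CPM in CD, with 0.23 ± 0.46 as log2 fold change (edgeR, adjusted p = 0.803).

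The mitochondrial trifunctional protein, which carries out the last steps for long chains, is built from Hadha and Hadhb, the divergent pair described with the Hadhb window above. Hadha, the hydratase and dehydrogenase subunit, had 11.3, 18.45 and 42.3 CPM in HFD and 5.48, 12.1 and 17.2 CPM in CD, and 5 of 6 HFD pools exceeded the CD mean. Its log2 fold change was 0.90 ± 0.39 (edgeR, adjusted p = 0.199). It was 0.61 without HFD replicate 1, the highest library, and 0.07 in the libraries with odd counts, which leave out HFD replicates 1, 2, 4 and 6. Hadhb, the thiolase subunit, had 8.92, 12.4 and 23.6 CPM in HFD and 16.8, 22.9 and 36.4 CPM in CD. All 6 HFD libraries were below the CD mean and 4 below every CD library, with a log2 fold change of -0.69 ± 0.33 (by edgeR, adjusted p = 0.234).

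The ratio of Hadha to Hadhb per kilobase was 0.348, 0.657 and 2.42 as lowest, median and highest in HFD, and 0.134, 0.268 and 0.444 in CD. It was above every CD library in 4 of 6 HFD libraries. This ratio was chosen after the values were seen and was not tested. Hadhb has processed pseudogenes, Gm13910 and Gm9108, that match 1428 and 1426 bases of its transcript at 99.8% and 97.6% identity, so its count is uncertain. Reads that aligned to several places made up, on average, 30.3% ± 3.93 of tallied reads in HFD and 23.3% ± 2.84 in CD (SD, n = 6 each; two-sided exact permutation test, p = 0.00216), and the part of such reads in the Hadhb values was not tested. With the trend with transcript length removed, the log2 fold changes were 1.06 for Hadha and -0.79 for Hadhb.

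**Figure D4:**
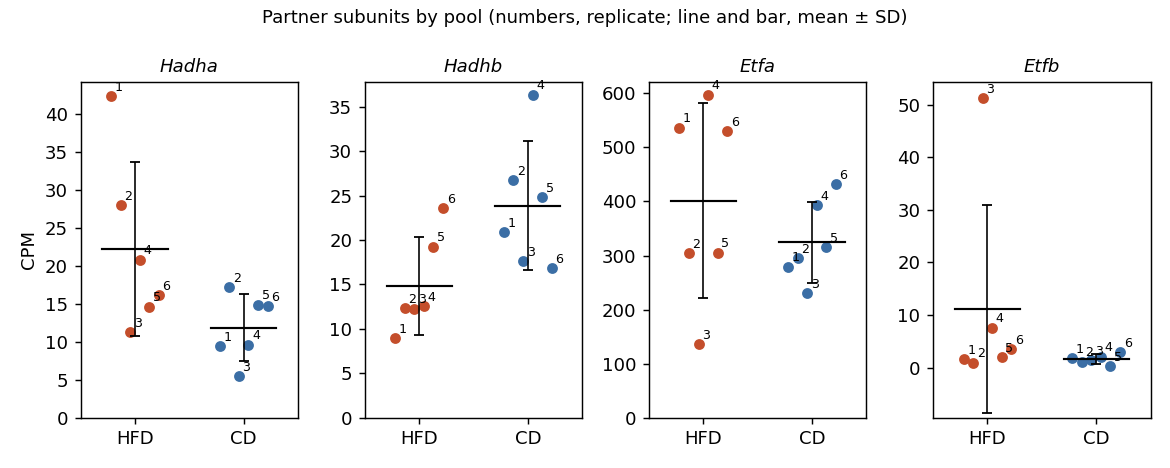
CPM in each pool of the trifunctional protein subunits Hadha and Hadhb and of the electron transfer flavoprotein subunits Etfa and Etfb, HFD left of CD, with replicate numbers and mean ± SD (n = 6 per diet). HFD replicate 3 holds 51.2 CPM of Etfb and the lowest value of Etfa in either diet.

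Of the other enzymes of the cycle, Echs1 had 87.7, 127 and 181 CPM in HFD and 76.7, 109 and 187 CPM in CD. The diets overlapped over nearly the whole range, and the log2 fold change was 0.22 ± 0.29 (edgeR, adjusted p = 0.694), with the sign turned to -0.17 when the length trend was removed. Hadh, the dehydrogenase for medium and short chains, ran from 2.69 to 15.55 CPM in HFD and from 7.23 to 17.8 CPM in CD, with -0.38 ± 0.42 as log2 fold change (edgeR, adjusted p = 0.635). Acaa2, the mitochondrial thiolase, ran from 0.473 to 3.99 CPM in HFD and from 0.285 to 3.07 CPM in CD, with 0.48 ± 0.72 as log2 fold change (edgeR, adjusted p = 0.728), turned to -0.18 when the length trend was removed.

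Of the enzymes for unsaturated chains 1 of 3 was tested, and of the peroxisomal enzymes 1 of 3. Eci2, an isomerase that moves double bonds, had 0.883, 2.72 and 6.16 CPM in HFD and 0, 1.35 and 2.80 CPM in CD, with 3 HFD libraries above every CD library, and a log2 fold change of 0.94 ± 0.74 (by edgeR, adjusted p = 0.478). Hsd17b4, the peroxisomal bifunctional protein that was expressed while Ehhadh was not detected, had 10.2, 13.6 and 26.3 CPM in HFD and 15.0, 18.4 and 33.4 CPM in CD. In HFD, 4 libraries lay below every CD library and 1 lay above the CD mean, with a log2 fold change of -0.44 ± 0.33 (by edgeR, adjusted p = 0.461). The value was -0.68 without HFD replicate 2 and -0.26 without CD replicate 5, the highest library of each diet.

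The electron transfer flavoprotein had subunits at very different levels. Etfa had 136, 418 and 597 CPM in HFD and 230.4, 305 and 432 CPM in CD. The log2 fold change was 0.31 ± 0.33 (edgeR, adjusted p = 0.613), with the sign turned to -0.16 when the length trend was removed and -0.60 in the libraries with odd counts. HFD libraries lay on both sides of the CD range, 3 above every CD library and replicate 3 below all of them. Etfb, the beta subunit, had 0.921, 2.79 and 51.2 CPM in HFD and 0.314, 1.61 and 2.95 CPM in CD. HFD replicate 3 alone held 51.2 CPM, and the other HFD libraries were at or below 7.56 CPM. The log2 fold change was 2.77 ± 0.94 (edgeR, adjusted p = 0.118), and 0.93 without HFD replicate 3. DESeq2's call of Etfb (adjusted p = 0.025) was likewise lost without that library (log2 fold change 0.94, adjusted p = 0.405). Etfb shares 678 exonic bases with Gm45233 and Mir7051, and Gm45233 is not among the genes of the count table. Whether the overlaps changed the Etfb counts was not tested, so these counts are uncertain. The Etfb transcript is short, at 893 bases against a median of 2974.5 for tested genes, and with the length trend removed its value was 0.98. Per kilobase the ratio of Etfb to Etfa was 0.00471 to 0.587 in HFD and 0.00155 to 0.0106 in CD, and without HFD replicate 3 the highest HFD value was 0.0197.

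Both receptors that switch on genes of the pathway in other tissues were tested. Ppara, the main one in liver, had 2.43, 6.95 and 12.3 CPM in HFD and 9.59, 12 and 16.8 CPM in CD. All 6 HFD libraries were below the CD mean and 5 were below every CD library, with replicate 2 within the CD range. The log2 fold change was -0.82 ± 0.39 (edgeR, adjusted p = 0.227), or -0.745 without CD replicate 3 and -0.64 with the length trend removed. Ppard, which is expressed in many tissues, ran from 1.89 to 6.08 CPM in HFD and from 0.498 to 5.51 CPM in CD, with 0.40 ± 0.57 as log2 fold change (edgeR, adjusted p = 0.716).

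The spread between pools was as wide for these genes as for others. The coefficient of variation of the 18 genes had a median of 52.8% in HFD and 51.2% in CD, beside 50.8% and 48.5% over all tested genes. Over all 12 libraries the highest value exceeded the lowest by 2.44 times for Echs1, the least of the 17 genes with no library at 0, and by 163 times for Etfb, the most. HFD replicate 1 held the lowest of 12 values for 5 of the 18 genes and the highest for 3, HFD replicate 3 the lowest for 4 and the highest for 3, and CD replicate 3 the highest for 4. With 1 library left out, the log2 fold change of Acadl ran from 0.04 to 0.44, that of Eci2 from 0.55 to 1.2, that of Acaa2 from 0.09 to 0.90, that of Etfa from 0.16 to 0.48, that of Echs1 from 0.10 to 0.41, that of Hadh from -0.64 to -0.19 and that of Ppard from 0.17 to 0.72.

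Wider lists of the pathway were counted in the same fit, in which no member passed an adjusted p of 0.05 with edgeR. Mlycd, Acot8 and Slc27a2 stand in more than 1 list. Of all tested genes, 22.3% had an unadjusted p under 0.05 (13.4% higher and 8.89% lower) and 51.8% lay above 0. These shares stand beside the counts of every list below. Synthetases and transporters that supply activated fatty acids had 8 of 17 genes tested, 4 above 0 and 4 below, with a median log2 fold change of -0.04 and 1 higher at an unadjusted p under 0.05. Fabp5, a fatty-acid binding protein, had 140.0, 225 and 360.3 CPM in HFD and 40.2, 89 and 154.5 CPM in CD, with 1.32 ± 0.35 as log2 fold change (edgeR, adjusted p = 0.0913), or 0.57 with the length trend removed. Acsm3, a medium-chain acyl-CoA synthetase, had -0.81 ± 0.41. Further mitochondrial enzymes had 13 of 20 in the table tested, 7 above 0 and 6 below (median 0.01), with 1 higher and 1 lower at an unadjusted p under 0.05. Among them, Mcee of the propionate route, an 828-base transcript, had 2.21 ± 0.61, or 1.1 without HFD replicate 3, and Mut of the same route had -1.035 ± 0.45.

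Peroxisomal genes had 15 of 23 tested, 10 above 0 and 5 below (median 0.19), none of them at an unadjusted p under 0.05. Pecr, a reductase of enoyl-CoA, averaged 847 ± 280.4 CPM in HFD libraries and 664 ± 126 CPM in CD, and Nudt7, a hydrolase of coenzyme A, 427 ± 217 CPM in HFD libraries and 262 ± 73.6 CPM in CD. Their log2 fold changes were 0.35 ± 0.26 and 0.71 ± 0.37 (edgeR, adjusted p = 0.438 and 0.268), and that of Pecr turned to -0.38 when the length trend was removed. For carnitine synthesis and transport 1 of 7 genes was tested. This was Aldh9a1, a dehydrogenase of carnitine synthesis, at 119.9 ± 42.7 CPM in HFD libraries and 197 ± 22.6 CPM in CD, with 5 of 6 HFD libraries below the CD mean and a log2 fold change of -0.72 ± 0.25 (by edgeR, adjusted p = 0.122).

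All 9 tested thioesterases of 14 had a log2 fold change above 0 (median 0.39), 1 of them at an unadjusted p under 0.05. Over all tested genes, 51.8% lay above 0 and 22.3% had an unadjusted p under 0.05. Acot13, a mitochondrial thioesterase with a 721-base transcript, had 1.29, 5.15 and 147 CPM in HFD and 0.524, 0.806 and 3.11 CPM in CD, with 4.59 ± 1.15 as log2 fold change (edgeR, adjusted p = 0.0913), 2.60 without HFD replicate 3 and 2.41 with the length trend removed. Acot11 had 2.92 ± 1.37, a value that was -0.65 without HFD replicate 3. Helpers of the flavoprotein and of ubiquinone synthesis had 11 of 12 in the table tested, 9 above 0 and 2 below (median 0.64). At an unadjusted p under 0.05, 2 were higher and 1 lower, against 13.4% and 8.89% of all tested genes. Flad1, which makes the flavin cofactor FAD, had 1.97 ± 0.67, or 0.82 without HFD replicate 3, and Coq7, an enzyme of ubiquinone synthesis, 1.13 ± 0.44, or 0.16 with the length trend removed.

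Transcriptional regulators had 12 of 17 tested, 7 above 0 and 5 below (median 0.07), with 1 higher and 1 lower at an unadjusted p under 0.05. Esrra, a nuclear receptor that drives genes of mitochondrial energy metabolism, had 9.87, 20.01 and 43.3 CPM in HFD and 3.97, 8.95 and 15.45 CPM in CD, and 6 of 6 HFD pools exceeded the CD mean. Its log2 fold change was 1.26 ± 0.41 (edgeR, adjusted p = 0.112). Pprc1, a coactivator, had -1.01 ± 0.43. Of the genes that make or remove malonyl-CoA, the inhibitor of the shuttle, 3 of 4 were tested, with a median of 0.87 and none at an unadjusted p under 0.05. Acacb, the carboxylase that makes it at mitochondria, had 0.87 ± 0.53, and Mlycd, which removes it, had 1.28 ± 0.93, a value that was -0.66 without HFD replicate 3. Over these lists DESeq2 called 5 genes as higher (Acot13, Coq4, Esrra, Fabp5 and Flad1, of which Coq4 is named after its value was seen) and 0 as lower. That is 7.25% of the 69 distinct genes of the lists that DESeq2 adjusted, close to the 7.42% over all genes.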

How the data were processed

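Read counts per gene symbol were used as deposited: whole numbers, not normalised, for 24062 genes in 12 libraries, plus 5 lines with the counter's tallies of unassigned reads, which were left out and made up 62.3% to 72.9% of tallied reads. Per the labels' protocols, cDNA was made by template switching (SMART-Seq v4) and tagmented (Nextera XT), which does not mark strand. STAR, HTSeq 1.0.0, DESeq2 1.0.19 and mm10 are named, per the submitters' processing notes. The annotation and the counter's settings are not named there. Reads carry no molecular identifiers. Libraries of a diet differed by at least 25.1 chi-square units per degree of freedom, so none is a copy.

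The genes and lists were chosen with earlier results of these data known. edgeR 4.0.16 (R 4.3.3) fitted diet over all genes passing its default filter, with TMM, a robust quasi-likelihood F-test and Benjamini-Hochberg adjustment. Each SE was derived from the estimate and its F value. A trial of the fit on simulated counts held no length trend, no even-only libraries and no library that stood apart. Nothing about these data is read from it. A gene without a call may still differ. Exonic length is that of the longest principal transcript in GENCODE M21, which held 22750 symbols, and 95.5% of tested genes had one. Near copies were found with BLAST 2.17.0 (at least 95% identity over 200 bases). DESeq2 1.42.0 and limma 3.58.1 were alternatives, with other scalings, no filter, halved even libraries, odd libraries alone, a length correction, a replicate block and leaving out each library. Lowest, median and highest values were printed for the tested gene with the highest level in each role and the 10 with the smallest p, ranges for the rest, and up to 2 genes with the smallest p for each wider list.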

Additional observations from a re-analysis of the deposited data

Results flagged for a closer look

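Of 36 groups of 6 libraries (18 genes in each diet), 4 held a library whose gap to the next value was large against the range of the group. Chance gives about 1 in 20 for normally distributed values, and whether these CPM are so distributed was not tested. The 4 were Etfb at 51.2 CPM in HFD replicate 3, Hsd17b4 at 26.3 CPM in HFD replicate 2, Hsd17b4 at 33.4 CPM in CD replicate 5, and Slc22a5 at 24.9 CPM in CD replicate 3. Each was the highest value of its group. Outside the gene counts, reads that aligned to several places averaged 30.3% of tallied reads in HFD and 23.3% in CD.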

How the results depend on the processing

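No gene of the 30 and none of the wider lists was called by edgeR with all libraries, nor with limma-voom, other scalings, no filter, halved even libraries, the length correction, the replicate block, or any 1 library left out (0 to 0 calls in each direction). DESeq2 called 1 of the 30 (Etfb, 2.76) and 5 of the wider lists (7.25% of 69), against 7.42% of all genes. Without HFD replicate 3, an alternative added after the data were seen, it called 0 and 4 (Acot13, Esrra, Fabp5 and Mcee, so without Coq4 and Flad1). Those 4 were 6.35% of 63 genes of the lists, against 5.21% of all genes. The libraries with odd counts alone (2 HFD, 6 CD) gave 1 (Etfb, 3.92) and 3 (Acot13, Flad1 and Mcee). Those 3 were 4.05% of 74 genes of the lists, against 4.03% of all genes. The median of the 18 log2 fold changes, 0.16 with all libraries, was -0.20 with odd-count libraries alone, -0.17 after the length correction, and 0.00 to 0.17 with 1 library left out. The values of the diets did not overlap for 0 to 1 genes when 1 library was left out. The 1 was Ppara without HFD replicate 2, its only HFD library within the CD range. The share over all tested genes is not given for these settings, so nothing is read from this count.

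Signs changed for these genes, and the cause was not tested. In the libraries with odd counts these were Cpt2 (0.58), Slc25a20 (-0.21), Acadm (-0.073), Echs1 (-0.19) and Etfa (-0.60). With the length correction they were Slc25a20 (-0.16), Echs1 (-0.17), Acaa2 (-0.18), Etfa (-0.16) and Pecr (-0.38). With 1 library left out, Cpt2 ran from -0.86 to 0.12, Slc25a20 from -0.11 to 0.59, Acot11 from -0.65 to 3.51 and Mlycd from -0.66 to 1.5. Acot11 was -0.33 and Mlycd -1.05 with limma-voom, and with DESeq2 without HFD replicate 3 they were -0.65 and -0.67. Libraries of the same replicate number did not consistently deviate together (correlations from -0.45 to 0.55, with 2 of 6 HFD libraries closest to their own number). No pairing was taken from the numbers. With the replicate block 0 genes of the 30 were called, as without it, and Mlycd was -0.40. Counts under about 20 in every library limit Cpt1a, Acadvl, Etfdh, Acads, Decr1, Acaa1a and Acot2. Some tested genes also had libraries under 20 counts, which limits their fold changes. Among them were Etfb (3 to 31 counts in CD), Eci2 (0 to 31 in CD), Acaa2 (3 to 34 in CD) and Acad9 (2 to 52 in HFD).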
